A study of Mus musculus with 4 samples.

Results

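The genes described here are 10 regulators of the G1 phase of the cell cycle: the D cyclins Ccnd1, Ccnd2 and Ccnd3, their kinases Cdk4 and Cdk6, the inhibitors Cdkn2a, Cdkn2b, Cdkn1b and Cdkn1c, and the retinoblastoma gene Rb1. They were taken by gene symbol from a table of 54446 mouse genes, and all 10 were found, are protein coding and passed the filter on low counts. Their coordinates are those of GENCODE M21 on the mouse build GRCm38. The study compared RNA of epithelial cells taken from the tongue of C57BL/6 mice knocked out systemically for Otub2, which encodes a deubiquitinase of the ovarian tumour family, with that of the same kind of cells from wild-type mice. There were 2 libraries labelled Otub2 knockout (KO 3 and KO 4) and 2 wild-type libraries (Control 1 and Control 2), all from cells grown in RPMI-1640 medium with 10% fetal bovine serum. The labels do not give the age of the mice, the type of Otub2 allele, or whether each library stands for its own mouse or culture, so that p-values measure only how these libraries spread, which may be technical.

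D cyclins are made in response to growth signals and bind Cdk4 or Cdk6, and the active kinase phosphorylates the retinoblastoma protein, which then releases E2F factors that switch on the genes for DNA synthesis. Inhibitors of the Ink4 family, encoded by Cdkn2a and Cdkn2b, bind Cdk4 and Cdk6 and keep the D cyclins from them, whereas the Kip proteins, encoded by Cdkn1b and Cdkn1c, bind complexes of cyclin and kinase. In stratified epithelia such as that of the tongue this circuit governs whether basal keratinocytes divide or leave the cycle, and products of the Cdkn2a locus accumulate in cultured keratinocytes as they reach senescence.

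The gene counts summed to 22719550 in KO 3 and 18911259 in KO 4, against 12185345 in Control 1 and 11548186 in Control 2. Otub2 itself was at 18.99 and 23.95 CPM (counts scaled to library size, here with the factors of the trimmed mean of M values, TMM) in the knockout libraries, against 27.5 and 26.9 CPM in the controls. Its log2 fold change of -0.34 had a 95% interval from -1.11 to 0.43, which includes 0, and the deleted exons are not stated. In the deposited table the columns numbered 3 and 4 carry the heading OE, whereas the titles with these numbers read KO; the titles were followed, and every direction given here rests on them. All 10 keratinocyte markers examined were detected in every library and took 2.10% and 4.83% of the gene counts in KO 3 and KO 4, against 7.33% and 6.91% in the controls. KO 3 stood apart from the other libraries: 11 salivary gland genes took 26.7% of its gene counts, against 0.00301% in KO 4 and 0.000796% and 0.000719% in the controls, although 3 of the 11 were at 0 in KO 3. Mucl2 made up most of this, with 5462635 counts in KO 3, against 348 in KO 4 and 21 and 16 in the controls. Amy1 and Mucl1 had only 34 and 52 counts in KO 3. Heart muscle genes summed to 16805 CPM in KO 3, against 30.9 CPM in KO 4 and 52.8 and 52.6 CPM in the controls. Of these, Myl7 had only 32 counts in KO 3, against 32 in KO 4 and 30 and 36 in the controls. Skeletal muscle genes summed to 425 CPM in KO 3 and 54.6 CPM in KO 4, against 16.2 and 15.1 CPM in the controls. Of these 7 genes, Acta1 was above both controls in both knockout libraries, beside 26.9% of all genes. Myh4 and Myod1 were below both in both, beside 33.1%. Proliferation markers summed to 285 CPM in KO 3 and 1251 CPM in KO 4, against 261 and 343 CPM in the controls, so that KO 4 was the library that stood apart there. KO 3 and KO 4 were at least 2-fold apart in 34.8% of 21716 genes, whereas the controls were so in 4.96%.

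None of the 10 genes differed between the groups at an adjusted p of 0.05 in edgeR's quasi-likelihood F-test with Benjamini-Hochberg adjustment over 21916 genes, in which 0% of all genes were called higher and 0% lower. At an unadjusted p of 0.05 the same test gave 2064 genes as higher (9.42%) and 3325 as lower (15.2%), and 1 of the 10, Cdkn2a, was among those higher. Cdkn2a, Cdkn1b and Cdk6 were above both controls in both knockout libraries, a position that 26.9% of all genes tested held, and Cdkn2b was below both controls in both, as were 33.1% of all genes. In the other 6 genes the groups overlapped. The median log2 fold change was 0.39 over the 10 genes and 0.09 over all genes tested. It was 0.41 over the 11785 genes with a mean of at least 5 CPM that were at 0 in no library. In these bulk samples a change in the number of cells of a type and a change in RNA per cell cannot be told apart. The plot of transcript levels by library shows the values behind these counts.

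**Figure D1:**
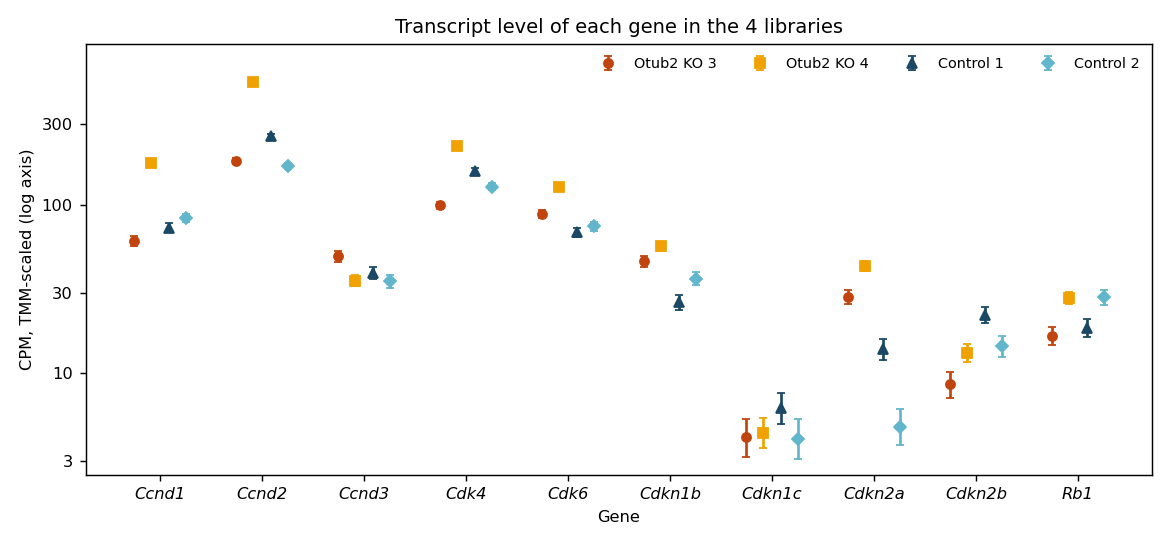
Transcript level of each of the 10 genes in CPM, TMM-scaled, on a log axis, for the libraries labelled Otub2 knockout (KO 3, KO 4) and the controls; bars are exact Poisson 95% intervals and cover counting error only. Cdkn2a lies at 28.4 and 43.4 CPM in the knockout libraries, above both controls at 13.9 and 4.83 CPM, while KO 4 alone is high for Ccnd1, Ccnd2 and Cdk4.

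For each D cyclin the knockout libraries lay further apart than the controls did, and the groups overlapped. Ccnd2 (ENSMUSG00000000184, chr6:127125162-127152193, minus strand), the D cyclin with the highest mean level, was at 181 CPM in KO 3 and 539 CPM in KO 4, against 256 CPM in Control 1 and 170 CPM in Control 2. KO 4 was far above the other 3 libraries, and KO 3 lay between the controls. The fitted log2 fold change was 0.76 with an SE of 0.575 (95% interval -0.70 to 2.22, adjusted p = 0.421 in edgeR's quasi-likelihood test). Ccnd1 (ENSMUSG00000070348, chr7:144929931-144939925, minus strand), the D cyclin best known as a target of mitogen signalling, had the same pattern, at 61.2 CPM in KO 3 and 176 CPM in KO 4, against 72.9 and 83.3 CPM in the controls. KO 3 was here the lowest of the 4 libraries and KO 4 the highest, and the log2 fold change was 0.61 (95% interval -0.73 to 1.94). KO 4 exceeded KO 3 by 2.97-fold for Ccnd2 and by 2.88-fold for Ccnd1.

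Ccnd3 (ENSMUSG00000034165, chr17:47505051-47599691, plus strand), the D cyclin that persists in many differentiating tissues, went the other way between the knockout libraries. It was at 49.6 CPM in KO 3 and 35.4 CPM in KO 4, against 39.3 and 35.2 CPM in the controls, and KO 3 was the highest library. The groups overlapped, with a log2 fold change of 0.19 (95% interval -0.55 to 0.94) that turned to -0.31 when libraries were scaled by library size alone. Within the summed FPKM of the 3 D cyclins (fragments per kilobase of transcript, scaled to library size, so that genes of different length can be compared), Ccnd3 took 14.9% in KO 3 and 4.09% in KO 4, against 9.50% and 10.1% in the controls. Ccnd2 took 50.8% and 58.0% in the knockout libraries, against 57.7% and 45.5% in the controls, and the groups overlapped. The FPKM ratio of Ccnd2 to Ccnd1 was 1.48 in KO 3 and 1.53 in KO 4, against 1.76 and 1.02 in the controls. The log2 difference of this ratio, 0.17, gave p = 1 in the exact two-sided permutation test, in which 2 libraries against 2 cannot go below 0.333. The FPKM ratio of Ccnd3 to Ccnd1 was 0.434 in KO 3 and 0.108 in KO 4, against 0.289 and 0.226 in the controls, so that the knockout libraries lay on either side of both controls. The Ccnd3 exons overlap those of Bysl on the opposite strand, and the sources used here do not say whether strand was counted. Bysl had 404 and 780 counts in the knockout libraries, against 688 and 572 in the controls. The Ccnd1 exons likewise overlap those of Oraov1 on the opposite strand. Oraov1 had 351 and 455 counts in the knockout libraries, against 246 and 260 in the controls.

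A fit of KO 4 alone against both controls, in which the single library is assumed to vary as the controls do, gave Ccnd2 a log2 fold change of 1.37 (adjusted p = 1.36e-06, edgeR) and Ccnd1 one of 1.20 (adjusted p = 2.99e-05, edgeR). That fit called 18.8% of all genes higher and 22% lower. A fit of KO 3 alone against both controls gave -0.24 for Ccnd2 and -0.36 for Ccnd1, neither of them past the threshold, so the direction of both cyclins depended on the library used. Over all settings compared, the adjusted p ran from 1.36e-06 to 0.832 for Ccnd2 and from 2.99e-05 to 0.883 for Ccnd1. The proliferation markers moved with these cyclins: all 7 were called higher in KO 4 alone and none in KO 3 alone, and their part in the result was not tested.

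Cdk4 (ENSMUSG00000006728, chr10:127063534-127067920, plus strand), the first of the D-cyclin kinases, had the highest level per kilobase of transcript of the 10 genes in every library. It was at 99.2 CPM in KO 3 and 222 CPM in KO 4, against 160 and 128 CPM in the controls. KO 3 was the lowest library and KO 4 the highest, on either side of both controls. The log2 fold change was 0.16 with an SE of 0.442 (95% interval -0.96 to 1.28), and it was -0.15 with scaling by library size alone and -0.30 with upper-quartile scaling. In KO 4 alone it was 0.65 (adjusted p = 0.0313, edgeR), and in KO 3 alone it was -0.54 (adjusted p = 0.107, edgeR).

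The Cdk4 promoter is shown because it carries 4 copies of the E-box CACGTG, the sequence bound by Myc with Max, in the 250 bases before the RefSeq transcription start at chr10:127063285-127063534 (GRCm38.p6, plus strand); capitals mark the E-boxes.
Cdk4: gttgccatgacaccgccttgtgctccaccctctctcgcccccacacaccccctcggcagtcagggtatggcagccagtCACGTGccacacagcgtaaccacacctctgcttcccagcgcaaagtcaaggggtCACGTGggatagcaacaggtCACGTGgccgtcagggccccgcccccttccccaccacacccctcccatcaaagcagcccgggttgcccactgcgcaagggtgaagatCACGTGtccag
On either strand, at least 1 such E-box was found in 6.02% of 32851 RefSeq windows of the same length. A match is a run of letters and no evidence of binding. Myc, a transcription factor that drives growth and is named here for the E-box, after its values were seen, was at 37.4 CPM in KO 3 and 89.0 CPM in KO 4, against 72.3 and 68.0 CPM in the controls. Like Cdk4, it was lowest in KO 3 and highest in KO 4, but a link between Myc and Cdk4 was not tested. The Cdk6 window of this length also held 1 CACGTG, and Cdk6 in KO 3 was above both controls, at 87.8 CPM against 68.7 and 74.7 CPM.

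Cdk6 (ENSMUSG00000040274, chr5:3341485-3531008, plus strand), the second D-cyclin kinase, was above both controls in both knockout libraries, at 87.8 CPM in KO 3 and 128 CPM in KO 4, against 68.7 and 74.7 CPM in the controls. Its log2 fold change was 0.59 (SE 0.290, 95% interval -0.15 to 1.33, adjusted p = 0.260 in edgeR's quasi-likelihood test). With libraries centred on their medians, scaled by library size alone or scaled by the upper quartile, the groups overlapped. In KO 4 alone the log2 fold change was 0.86 (adjusted p = 0.00396, edgeR), and in KO 3 alone it was 0.29 (adjusted p = 0.411, edgeR). Per length Cdk6 was the minor kinase, at 17.1% of the summed FPKM of Cdk4 and Cdk6 in KO 3 and 11.8% in KO 4, against 9.09% and 11.9% in the controls. The log2 ratio of Cdk6 to Cdk4 differed by 0.51 (exact permutation p = 0.667), and KO 4 lay between the controls. The exons of Cdk4 overlap those of Tspan31 on the opposite strand, which had 502 and 1299 counts in the knockout libraries, against 509 and 473 in the controls, and like Cdk4 was highest in KO 4.

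Among the inhibitors, the neighbouring genes Cdkn2a and Cdkn2b lay on opposite sides of the controls. Cdkn2a (ENSMUSG00000044303, chr4:89274471-89294653, minus strand) encodes p16Ink4a, which blocks Cdk4 and Cdk6, and, from another first exon in a different reading frame, p19Arf, which stabilises p53. It was at 28.4 CPM (407 counts) in KO 3 and 43.4 CPM (897 counts) in KO 4, against 13.9 CPM (199 counts) in Control 1 and 4.83 CPM (66 counts) in Control 2. Both knockout libraries were above both controls, and the exact Poisson 95% intervals of the nearest pair, 25.7 to 31.3 CPM in KO 3 and 12.1 to 16.0 CPM in Control 1, did not touch. The controls differed from each other by 2.88-fold, more than the knockout libraries did (1.53-fold). Cdkn2a averaged 35.9 ± 10.6 CPM in knockout libraries and 9.38 ± 6.43 CPM in controls (SD, n = 2 each). The fitted log2 fold change was 1.94 (SE 0.594, 95% interval 0.43 to 3.45), a 3.83-fold higher level, with an unadjusted p of 0.0213 and an adjusted p of 0.171 in edgeR's quasi-likelihood test.

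DESeq2, which called 4.89% of 15967 genes higher and 1.62% lower, gave Cdkn2a as the only one of the 10 called higher and none as lower, with a log2 fold change of 2.0 (adjusted p = 0.0405, DESeq2). In limma voom the adjusted p of Cdkn2a was 0.198, and over all settings compared it ran from 3.69e-13 to 0.832. Against both controls Cdkn2a had a log2 fold change of 1.59 in KO 3 alone (adjusted p = 3.06e-07, edgeR) and 2.23 in KO 4 alone (adjusted p = 3.69e-13, edgeR). Leaving out Control 1 gave 2.90 (adjusted p = 0.832, edgeR) and leaving out Control 2 gave 1.40 (adjusted p = 0.732, edgeR). The KO 3 fit called 22.4% of all genes higher and 12.7% lower. The fits of KO 3 alone and KO 4 alone share both controls and hold a single knockout library each, so their agreement on Cdkn2a is not independent support. The groups of Cdkn2a stayed apart under all 6 scalings, with log2 fold changes of 1.46 to 2.0. Of 8 fibroblast markers, 5 lay on the same side as Cdkn2a, above both controls in both knockout libraries, beside 26.9% of all genes. These were Col1a1, Col1a2, Col3a1, Lum and Postn. Dcn and Pdgfra were above both controls in KO 3 but below both in KO 4. Thy1 was below both controls in KO 3 and between them in KO 4. The 8 summed to 671 and 463 CPM in KO 3 and KO 4, against 157 and 199 CPM in the controls. Smooth muscle and pericyte markers were above both controls in both in 3 of the 5 tested, and the 6 listed summed to 378 and 91.7 CPM, against 54.5 and 52.7 CPM in the controls. Acta2, smooth muscle actin, had a log2 fold change of 3.58 (adjusted p = 0.166 in edgeR and 7.93e-05 in DESeq2). Cnn1 in KO 4 was at 1.06 CPM, below the controls at 3.01 and 2.86 CPM. Endothelial markers were above both controls in both in 3 of 5 and summed to 213 and 59.9 CPM, against 61.4 and 54.6 CPM in the controls. Tek and Emcn were above both controls in KO 3 and below both in KO 4, where they were at 4.16 and 6.82 CPM. Leukocyte markers were below both controls in both in 4 of 7, beside 33.1% of all genes, and above in 1. They summed to 255 and 316 CPM, against 796 and 739 CPM in the controls, of which S100a8 made up most. Csf1r and Adgre1 were above both controls in KO 3, at 22.8 and 8.10 CPM, and below both in KO 4, at 4.16 and 1.31 CPM. Of 10 keratinocyte markers 5 were below both controls in both, beside 33.1% of all genes, and the 10 summed to 33329 and 44202 CPM, against 62518 and 58475 CPM in the controls. Krt14 was the largest part of these sums. Krt5, Trp63, Dsg3 and Cdh1 were above both controls in KO 4, at 8223, 526, 739 and 508 CPM, but not in KO 3. No marker of these 5 lists was at 0 in any library, and the part of these markers in the Cdkn2a result was not tested.

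Cdkn2b (ENSMUSG00000073802, chr4:89306299-89311039, minus strand), which encodes the Ink4 inhibitor p15Ink4b, known from human keratinocytes as a gene induced by transforming growth factor beta, was at 8.59 CPM (123 counts) in KO 3 and 13.3 CPM (274 counts) in KO 4, against 22.3 CPM (319 counts) and 14.4 CPM (197 counts) in the controls. Both knockout libraries were below both controls, although KO 4 and Control 2 were close, with Poisson intervals of 11.7 to 14.9 CPM and 12.5 to 16.6 CPM. The log2 fold change was -0.75 with an SE of 0.433 (95% interval -1.85 to 0.35, adjusted p = 0.313 in edgeR's quasi-likelihood test). It was negative under all 6 scalings, from -1.22 to -0.69. In KO 3 alone Cdkn2b was lower by a log2 fold change of -1.10 (adjusted p = 0.00264, edgeR), whereas KO 4 alone gave -0.44 (adjusted p = 0.227, edgeR). Leaving the features without a gene name in the library sizes made the groups overlap.

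Because both genes were read in the same library, their ratio does not depend on scaling. The FPKM ratio of Cdkn2b to Cdkn2a was 0.255 in KO 3 and 0.258 in KO 4, against 1.35 in Control 1 and 2.52 in Control 2. The knockout libraries had nearly the same ratio and both lay below both controls. The log2 ratio averaged -1.96 ± 0.0109 in knockout libraries and 0.88 ± 0.634 in controls (SD, n = 2 each), a difference of -2.85 with p = 0.333 in the exact two-sided permutation test, the smallest that 2 against 2 allows. Cdkn2a thus made up 79.7% and 79.5% of the summed FPKM of the pair in the knockout libraries, against 42.5% and 28.4% in the controls. This share is per gene and cannot separate p16Ink4a from p19Arf. With counts plus 0.5 in place of FPKM the log2 difference was -2.84, and leaving out each library in turn gave -3.30 to -2.40. The plot of shares within each family shows this beside the other families.

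**Figure D2:**
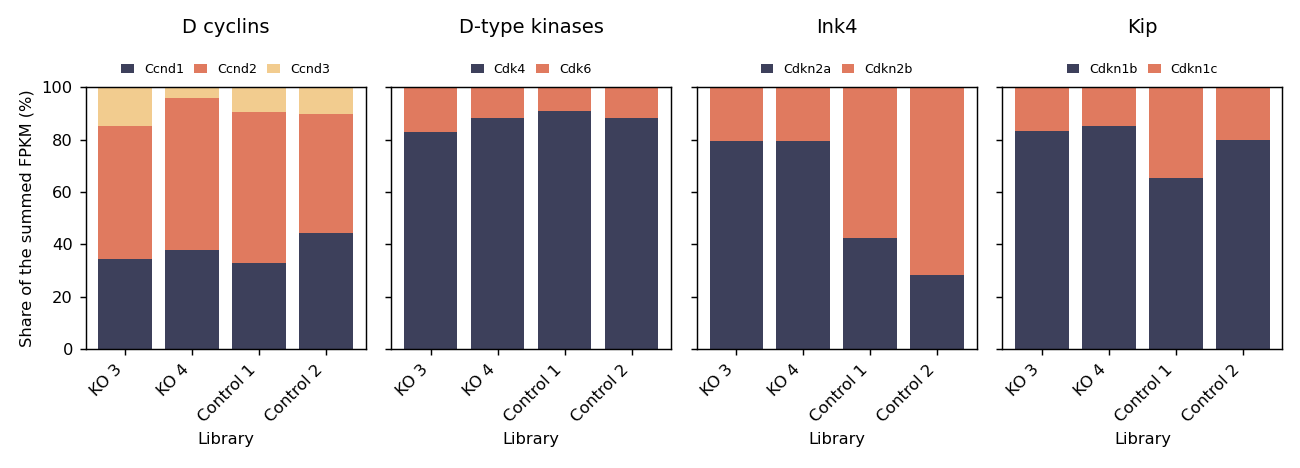
Share (%) of each gene in the summed FPKM of its family in each library, with the libraries labelled Otub2 knockout (KO 3, KO 4) left of the controls: D cyclins, D-type kinases, the Ink4 pair and the Kip pair. Cdkn2a, counted per gene without separating p16Ink4a from p19Arf, makes up 79.7% and 79.5% of the Ink4 pair in the knockout libraries, against 42.5% and 28.4% in the controls.

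The start regions of this locus are shown because the counts are per gene and cannot separate p16Ink4a from p19Arf, which share their later exons but start at different promoters. Each is the 250 bases before a RefSeq start in GRCm38.p6 on the minus strand of chromosome 4, written in the direction of transcription: the distal Cdkn2a start, which gives p19Arf (chr4:89294620-89294869), the proximal start, which gives p16Ink4a (chr4:89282193-89282442), and the Cdkn2b start (chr4:89311033-89311282). Capitals mark the E2F motif TTTCCCGC and the GC box GGGCGG in the distal Cdkn2a window, and the cyclic AMP response element TGACGTCA in the Cdkn2b window.
Cdkn2a distal: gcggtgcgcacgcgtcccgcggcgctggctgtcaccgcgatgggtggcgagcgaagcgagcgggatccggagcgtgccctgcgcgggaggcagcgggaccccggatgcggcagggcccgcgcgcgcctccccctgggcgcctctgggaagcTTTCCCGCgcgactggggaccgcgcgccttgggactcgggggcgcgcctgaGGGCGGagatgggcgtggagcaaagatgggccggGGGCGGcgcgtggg
Cdkn2a proximal: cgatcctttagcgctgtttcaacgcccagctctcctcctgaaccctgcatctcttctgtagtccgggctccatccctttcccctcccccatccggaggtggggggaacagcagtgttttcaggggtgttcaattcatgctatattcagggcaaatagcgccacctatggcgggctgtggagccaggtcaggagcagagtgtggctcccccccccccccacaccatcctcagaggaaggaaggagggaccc
Cdkn2b: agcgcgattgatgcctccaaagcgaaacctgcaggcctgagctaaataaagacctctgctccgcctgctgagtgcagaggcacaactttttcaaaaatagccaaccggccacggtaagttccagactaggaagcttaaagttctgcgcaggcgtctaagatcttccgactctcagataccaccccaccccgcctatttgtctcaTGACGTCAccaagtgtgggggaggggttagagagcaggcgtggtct
The 3 windows differed in base composition, with 78.4% G and C in the distal Cdkn2a window, 60% in the proximal one and 53.6% in that of Cdkn2b. On either strand, TTTCCCGC or TTTGGCGC was found in 1.3% of 32851 RefSeq windows of this length, TGACGTCA in 1.55% and GGGCGG in 32.7%. The proximal Cdkn2a window held none of these letters. Of the 10 genes, 6 had such windows in the RefSeq table used, 8 windows in all.

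The Kip pair held 1 gene above the controls and 1 whose groups overlapped. Cdkn1b (ENSMUSG00000003031, chr6:134920401-134925513, plus strand), which encodes p27Kip1, an inhibitor of cyclin E and cyclin A complexes that is itself controlled mainly by protein turnover, was at 46.2 CPM in KO 3 and 56.6 CPM in KO 4, against 26.5 and 36.5 CPM in the controls. Both knockout libraries were above both controls and close to each other. It averaged 51.4 ± 7.35 CPM in knockout libraries and 31.5 ± 7.09 CPM in controls (SD, n = 2 each), and its fitted log2 fold change of 0.71 had an SE of 0.298 (95% interval -0.05 to 1.47, unadjusted p = 0.0616 and adjusted p = 0.216 in edgeR's quasi-likelihood test). In KO 4 alone the log2 fold change was 0.87 (adjusted p = 0.00538, edgeR), and in KO 3 alone it was 0.55 (adjusted p = 0.106, edgeR). The groups overlapped under scaling by library size alone and by the upper quartile.

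Cdkn1c (ENSMUSG00000037664, chr7:143458339-143461050, minus strand), an imprinted gene that encodes p57Kip2 and is expressed from the maternal copy, had the lowest level per kilobase of the 10 in every library. It was at 4.19 CPM (60 counts) in KO 3 and 4.45 CPM (92 counts) in KO 4, against 6.23 CPM (89 counts) and 4.10 CPM (56 counts) in the controls. Control 1 was the highest, and the Poisson intervals of all 4 libraries overlapped. The log2 fold change was -0.26 (95% interval -1.45 to 0.94). The FPKM ratio of Cdkn1c to Cdkn1b was 0.202 and 0.176 in the knockout libraries, against 0.526 and 0.251 in the controls. Both knockout libraries were below both controls (log2 difference -0.95, exact permutation p = 0.333, the smallest possible). All 5 ratios computed among the 10 genes had a permutation p of 0.333 or more, before any adjustment.

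Rb1 (ENSMUSG00000022105, chr14:73183673-73325822, minus strand), the substrate on which the D-cyclin kinases act, was at 16.7 CPM in KO 3 and 27.97 CPM in KO 4, against 18.6 and 28.3 CPM in the controls. Each group held a low and a high library, and the spread within the groups was larger than the difference between them. The log2 fold change was -0.07 with an SE of 0.413 (95% interval -1.12 to 0.98, adjusted p = 0.923 in edgeR's quasi-likelihood test), and its sign turned when Control 2 (0.30) or KO 3 (0.28) was left out. Rb1 exons overlap those of Rcbtb2 and Lpar6 on the opposite strand; Lpar6 had 339 and 985 counts in the knockout libraries, against 659 and 744 in the controls, more than Rb1 had in every library.

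Per kilobase of transcript, the mean of the 4 libraries placed Cdk4 first at 46.9 CPM per kilobase, followed by Ccnd2 at 30.5, Ccnd1 at 20.9, Cdkn2a at 19.3, Cdkn2b at 10.5, Cdkn1b at 9.10, Cdk6 at 6.42, Ccnd3 at 4.54, Rb1 at 3.80 and Cdkn1c at 2.33 CPM per kilobase. The ranges over the 4 libraries overlapped for every pair of neighbours in this order. Cdkn2a moved most in rank: it was the second of the 10 in KO 3 and the fourth in KO 4, against the fifth in Control 1 and the eighth in Control 2. Cdkn2b was the seventh and the sixth in KO 3 and KO 4, against the third and the fourth in the controls. The D cyclins together reached 37.9 and 98.8 CPM per kilobase in the knockout libraries, against 47.2 and 39.8 in the controls. The Kip pair summed to 12.2 and 14.6 CPM per kilobase in the knockout libraries, against 8.87 and 10.02 in the controls.

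Set beside each other, the knockout libraries gave different accounts of the 10 genes. The median log2 difference from the mean of the controls was -0.24 in KO 3 and 0.73 in KO 4 over the 10 genes. Over the 21716 tested genes that were at 0 in no library it was -0.03 in KO 3 and -0.05 in KO 4. Over those of at least 5 CPM it was 0.29 in KO 3 and 0.36 in KO 4. KO 4 alone had 6 of the 10 genes called higher (Ccnd1, Ccnd2, Cdk4, Cdk6, Cdkn1b and Cdkn2a) and none lower, beside 18.8% and 22% of all genes. KO 3 alone had Cdkn2a called higher and Cdkn2b lower, beside 22.4% and 12.7% of all genes, so that these counts of 1 were no larger than the shares of all genes would give. In Ccnd1, Ccnd2, Cdk4 and Rb1 the libraries lay on opposite sides of the control mean, with KO 3 below and KO 4 above it, and in Ccnd3 with KO 3 above and KO 4 below it. The plot of differences by library shows that Cdkn2a, Cdkn1b and Cdk6 were the genes above the control span in both. The log2 difference of Cdkn2a was 1.79 in KO 3, where salivary gland genes summed to 423710 CPM, and 2.40 in KO 4, where they summed to 27.6 CPM. The part of the salivary, heart muscle and skeletal muscle transcripts in the values of the 10 genes was not tested.

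**Figure D3:**
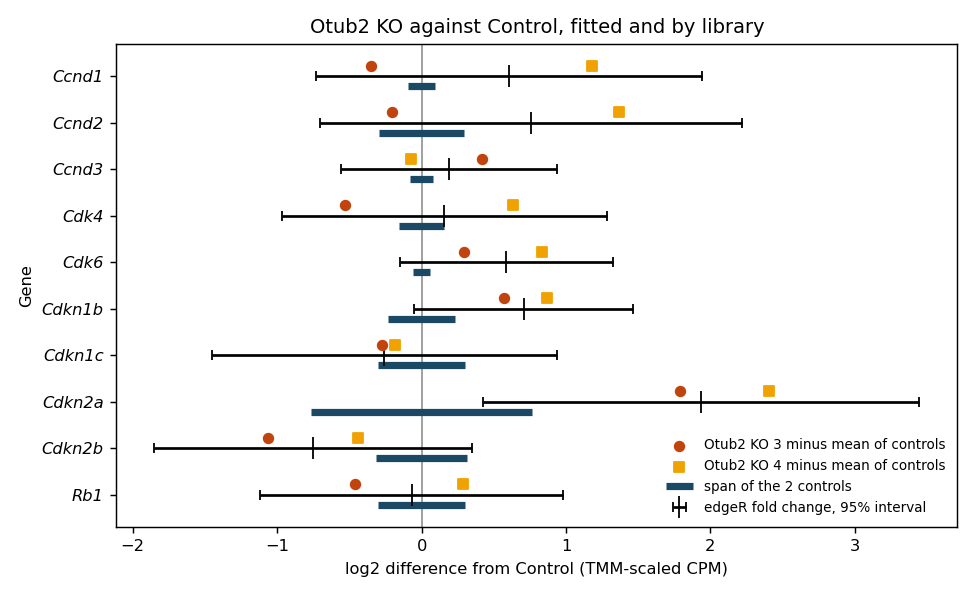
Log2 difference from the mean of the controls for KO 3 (circles) and KO 4 (squares), the span of the controls (thick bars), and edgeR's log2 fold change with its 95% interval (thin lines), in TMM-scaled CPM. Cdkn2a stands at 1.79 in KO 3 and 2.40 in KO 4, and is the only one of the 10 genes whose interval, 0.43 to 3.45, does not include 0.

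How the libraries were scaled moved all 10 genes together. Scaling by library size alone lowered the median log2 fold change of all genes by 0.44 relative to TMM, upper-quartile scaling by 0.47 and median centring by 0.31. Under these the sign of Ccnd3 and Cdk4 turned, while Cdkn2a, Cdkn1b, Cdk6, Ccnd1 and Ccnd2 stayed above 0 and Cdkn2b, Cdkn1c and Rb1 below it. With library size alone 1 of the 10 was above both controls in both knockout libraries (9.17% of all genes) and 3 were below (43%). Upper-quartile scaling gave 1 above (10.4%) and 2 below (48.5%), median centring 2 above (14.8%) and 2 below (42.9%), and the size factors of DESeq2 in edgeR 3 above (29%) and 1 below (31.4%). Cdkn2a was above and Cdkn2b below the controls under each of these and under TMM without the 10 most abundant genes. The plot of fold changes under 6 scalings shows how far each gene moved.

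**Figure D4:**
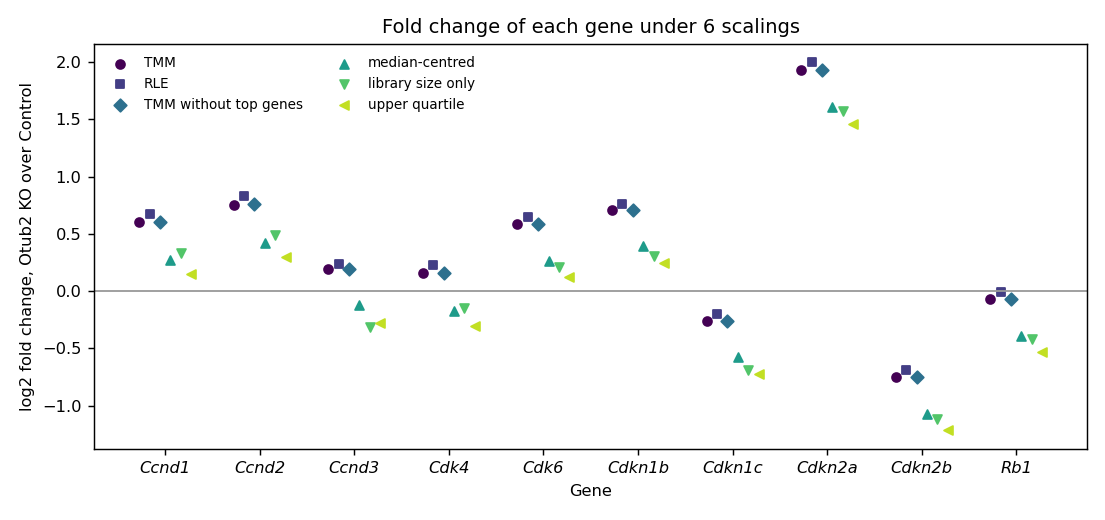
Log2 fold change of Otub2 KO over Control for each of the 10 genes from edgeR under 6 ways of scaling the libraries. Cdkn2a ranges from 1.46 to 2.0 and Cdkn2b from -1.22 to -0.69, while Ccnd3 (-0.31 to 0.24) and Cdk4 (-0.30 to 0.23) lie on both sides of 0.

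The other inhibitors of the cycle lay on different sides of the controls. Cdkn1a, which encodes p21, the inhibitor induced by p53, was at 140 CPM in KO 3 and 197 CPM in KO 4, against 285 and 276 CPM in the controls. It was below both controls in both knockout libraries under all 6 scalings, like Cdkn2b, with a log2 fold change of -0.74 (adjusted p = 0.207 in edgeR's quasi-likelihood test). Cdkn2d, which encodes the Ink4 inhibitor p19Ink4d, was at 14.6 and 26.95 CPM in the knockout libraries, against 13.7 and 10.7 CPM in the controls, and Cdkn2c, which encodes p18Ink4c, overlapped (log2 fold change 0.37). None of these 3 was called in edgeR.

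Of 8 late G1 cyclins and kinases, 5 were above both controls in both knockout libraries and none below, beside 26.9% and 33.1% of all genes, and none was called in edgeR. With library size alone none was above or below, beside 9.17% and 43% of all genes. Their median log2 fold change was 0.58, with 0.10 in KO 3 and 1.08 in KO 4. Cdc25a, the phosphatase that activates Cdk2, was at 21.6 and 33.8 CPM in the knockout libraries, against 14.3 and 13.8 CPM in the controls. Cdk2, the kinase of cyclins E and A, was at 25.4 CPM in KO 3 and 55.02 CPM in KO 4, against 24.98 and 25.2 CPM in the controls, so that KO 3 was close to them. Ccna2 and Ccne2 overlapped between the groups, with log2 fold changes of 1.08 and 0.74.

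Of 12 pocket proteins, E2F factors and their partners, 3 were above both controls in both knockout libraries, none was below and none was called in edgeR. The share above was close to the 26.9% of all genes, whereas 33.1% of all genes were below. E2f6, a repressive E2F, was at 40.4 and 25.6 CPM in the knockout libraries, against 11.1 and 13.5 CPM in the controls. The fitted log2 fold change was 1.43 (adjusted p = 0.166 in edgeR and 0.0331 in DESeq2). Rbl2, which encodes the pocket protein p130 of quiescent cells, was at 36.9 and 24.6 CPM, against 11.8 and 13.4 CPM in the controls. Its log2 fold change was 1.28 (adjusted p = 0.166 in edgeR and 0.0467 in DESeq2). Both were above the controls under all 6 scalings and were higher in KO 3 than in KO 4, unlike Rb1. Tfdp2, a dimer partner of E2F, was at 69.5 and 34.1 CPM in the knockout libraries, against 22.6 and 28.6 CPM in the controls, whereas E2f1, an activating E2F, was at 6.84 and 29.0 CPM, against 8.68 and 8.35 CPM in the controls.

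Of 10 E2F target genes of the G1/S step, 1 was above both controls in both knockout libraries, none was below and none was called in edgeR, beside 26.9% of all genes above and 33.1% below. As a median they lay at -0.40 in KO 3 and 1.66 in KO 4 on the log2 scale, relative to the controls. KO 4 alone had all 10 called higher, beside 18.8% of all genes, and KO 3 alone had 2 called lower, beside 12.7%. Mcm2, a subunit of the replicative helicase, was at 24.9 and 94.5 CPM in the knockout libraries, against 20.99 and 23.95 CPM in the controls. Cdc6, which loads that helicase, was at 3.56 and 28.1 CPM, against 5.74 and 6.23 CPM in the controls. Mcm5 and Mybl2 likewise were highest in KO 4, at 129 and 50.3 CPM.

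Of 9 genes for the turnover of cyclins D and E and of p27, 4 were above both controls in both knockout libraries, 1 was below and none was called in edgeR. With TMM, 26.9% of all genes were above and 33.1% below. With library size alone none of the 9 was above and 1 was below, beside 9.17% and 43% of all genes. Ambra1, the substrate receptor that targets D cyclins for destruction, was at 45.5 and 49.4 CPM in the knockout libraries, against 29.3 and 30.3 CPM in the controls. The fitted value was a log2 fold change of 0.67 (adjusted p = 0.197 in edgeR). Gsk3b, a kinase that marks cyclin D1 for export and degradation, was at 104 and 122 CPM, against 63.8 and 84.4 CPM in the controls, and Cul1, the scaffold of the Skp2 ligase, at 106 and 122 CPM, against 71.1 and 93.3 CPM. Fbxo31, an F-box protein linked in human cells to cyclin D1 turnover after DNA damage, stood alone in KO 3, at 54.1 and 21.4 CPM in the knockout libraries, against 18.3 and 19.8 CPM in the controls. The median of the 9 was 0.54, against 0.41 for genes of at least 5 CPM.

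Of 15 regulators of the D cyclins and of the Ink4 locus, 5 were above both controls in both knockout libraries, 2 were below and none was called in edgeR. Of all genes 26.9% were above, a share near that of the list, and 33.1% below. Ets1, a factor known from human cells to activate p16Ink4a, was at 36.7 and 47.1 CPM in the knockout libraries, against 16.2 and 15.7 CPM in the controls. Its log2 fold change was 1.39 (adjusted p = 0.166 in edgeR and 0.0187 in DESeq2). Bmi1, a Polycomb protein known to repress the Cdkn2a locus, was at 46.2 and 26.2 CPM, against 11.5 and 14.4 CPM in the controls. Its log2 fold change was 1.48 (adjusted p = 0.166 in edgeR and 0.0377 in DESeq2). A known activator and a known repressor of the locus were thus both above the controls, under all 6 scalings. Ets2, a relative of Ets1, was at 125 and 165 CPM, against 80.9 and 81.8 CPM in the controls. Foxo3, a factor known to activate Cdkn1b, was at 114 CPM in both knockout libraries, against 59.3 and 68.1 CPM in the controls, with a log2 fold change of 0.83 for each of these 2 genes. The list's median was 0.35, below that of genes of at least 5 CPM. DESeq2 called Ets1 and Bmi1 higher in this list and E2f6 and Rbl2 higher among the E2F factors and pocket proteins, and none of the pathway genes lower.

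Of 8 imprinted neighbours of Cdkn1c on chromosome 7, 2 were above both controls in both knockout libraries, 1 was below and none was called in edgeR. The share above was near the 26.9% of all genes, and 33.1% of all genes were below. The median of their log2 fold changes was 0.09, as it was over all genes tested. With upper-quartile scaling their median was -0.38 and 4 were below. All genes then had a median of -0.38 too, and 48.5% of them were below. Kcnq1, the potassium channel gene beside Cdkn1c, was at 14.1 CPM in KO 3 and 1.40 CPM in KO 4, against 0.770 and 1.17 CPM in the controls, so that KO 3 stood alone. Phlda2, a growth restrainer of the placenta, was at 4.26 and 10.9 CPM, against 11.8 and 13.8 CPM in the controls. H19, an imprinted non-coding RNA, was at 8.17 and 18.0 CPM in the knockout libraries, against 10.4 and 0.439 CPM in the controls, where Control 2 had 6 counts and Control 1 had 148. Nap1l4, a histone chaperone gene, was at 116 and 158 CPM, against 96.2 and 81.2 CPM in the controls.

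As a description over 4 libraries, which differ in depth and composition, each of the 10 genes was matched with the gene of these lists whose log2 CPM, centred on its own mean, lay closest among 74 genes. Ccnd1 was closest to Tyms, the thymidylate synthase gene, at a Euclidean distance of 0.103 log2 units, and Ccnd2 to the thymidine kinase gene Tk1, at 0.315, with the cyclin gene Ccne1 nearly as close at 0.328. Cdk4 was closest to Cks1b, a cofactor of Skp2, at 0.285, and Cdk6 to E2f5, at 0.269. Ccnd3 was closest to the imprinted non-coding RNA Kcnq1ot1, at 0.109, Rb1 to E2f7, at 0.285, and Cdkn1b to Gsk3b, at 0.115. Cdkn1c was closest to Fbxw7, at 0.450, and Cdkn2b to Cdkn1a, at 0.419. Cdkn2a had no close match, since its nearest, Ets1, was at 1.26.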

How the data were processed

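RNA was sequenced in 4 libraries, 2 labelled Otub2 knockout and 2 wild type. The deposited table holds whole-number read counts per gene and an FPKM for each count, both made by the authors, per the file headers; HISAT2, DESeq and the human build GRCh38 are named in the submitters' processing notes, although the gene IDs are mouse. The sources used here do not give the counter, annotation or strand setting. The knockout columns are headed OE with the numbers 3 and 4 and were matched to the knockout titles by number. Of 54446 IDs, 54409 were found in GENCODE M21 (GRCm38), which gave coordinates; unused columns of per-sample values numbered 0. Features without a gene name (14785, with 1.29% and 0.914% of counts in KO 3 and KO 4, against 2.84% and 2.82% in the controls) were left out.

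Counts were filtered with filterByExpr, scaled by TMM and tested with edgeR 4.0.16 (R 4.3.3) by the quasi-likelihood F-test with Benjamini-Hochberg adjustment at 0.05 over all genes; the code was tested on simulated data. DESeq2 1.42.0, limma 3.58.1 voom, other scalings and filters, and leaving out each library were alternatives. SE is the log2 fold change divided by the square root of F. Exact permutation tests used scipy 1.17.1. Poisson 95% intervals cover counting error only, since reads are not independent molecules. All 10 genes are named, and from each pathway list up to 4 genes with the smallest p, and for each of the 10 its nearest pathway gene; Myc, Ccne1 and the markers were named after their values were seen. The genes and lists were chosen with earlier results of these data known. Promoter windows are from RefSeq (GRCm38.p6).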

Additional observations from a re-analysis of the deposited data

How the results depend on the processing

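Of 139 alternative values of the 10 log2 fold changes, 112 kept their direction and side of the threshold, 9 passed it and 18 turned in sign; the cause was not tested. Genes called higher numbered 37 with library size only, 6 with no filter, 780 in DESeq2 and 0 to 5243 with a library left out; those lower numbered 1433, 3, 258 and 0 to 5097. Of the 10 genes, DESeq2 called 1 higher, and leaving out a library 0 to 6 higher and 0 to 1 lower. Above both controls were 1 under upper-quartile scaling (10.4% of all genes) and 1 with library size only (9.17%). Below were 2 (48.5%) and 3 (43%), with 2 when median-centred (42.9%) and 0 with unnamed features kept. With a library left out 3 to 7 were above and 1 to 4 below, but fewer libraries then had to lie apart. The share of all genes was not computed with a library left out or unnamed features kept, so those counts cannot be read as particular to the 10 genes. Signs turned for Ccnd3 (-0.28 upper quartile, -0.31 library size, -0.12 median-centred, -0.12 at a mean of 5 CPM, leaving out a library -0.045 to 0.41), for Cdk4 (-0.30, -0.15, -0.17, -0.17, and -0.54 to 0.65), for Cdkn1c (0.0011 with unnamed features kept, and -0.50 to 0.084 with a library left out) and for Rb1 (0.068 with no filter, 0.19 with unnamed features kept, and -0.50 to 0.30). Leaving out a library gave -0.36 to 1.20 for Ccnd1 and -0.24 to 1.37 for Ccnd2. With a library left out, the log2 difference of Ccnd2 to Ccnd1 turned to -0.22 without Control 2 and that of Ccnd3 to Ccnd1 to 0.76 without KO 4; with 2 libraries a group such a move is always smaller than their SD. Cdkn1c has no value at a mean of 5 CPM. No paired analysis was possible because the numbers 1 to 4 are not shared between the groups. Cdkn1c had the fewest counts, 56 to 92 a library.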
